A study of Mus musculus with 4 samples.

Results

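The chemokine and migration receptors Ccr1, Ccr2, Ccr6, Ccr7, Cx3cr1, Cxcr1, Cxcr2, Cxcr4 and Gpr183 were followed in CD11b+ splenocytes. These 9 genes were taken by name from the 27998 genes of the deposited table, of which 16898 had at least 1 UMI (a unique molecular identifier, which marks 1 captured RNA molecule). All 9 receptors had UMIs, from 138 for Cxcr1 and 232 for Ccr6 to 15355 for Cxcr2 and 25088 for Ccr2.

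The cells came from spleens of mice used at 8 to 12 weeks of age, were sorted for CD11b and were profiled by CITE-seq, which reads the RNA and antibody tags of the same cell. One pair of libraries (RNA and tags) was made in steady state, with 0 injections. The other pair was made after 3 once-daily subcutaneous injections of 10 µg GM-CSF, a growth factor of myeloid cells, with cells taken 24 hours after the last injection. There was 1 library per condition and no replicate, so no test of a difference between conditions was possible and a condition and its library cannot be told apart. Whether 1 mouse or pooled mice gave a library, and the strain used for CITE-seq, are not given in the sources used here.

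Chemokine receptors are G protein-coupled receptors that turn a gradient of a chemokine into directed movement through Gi proteins. In blood and spleen, Cxcr2 and Cxcr1 bind the ELR-type CXC chemokines that attract neutrophils, Ccr1 binds Ccl3, Ccl5 and related chemokines, and Cxcr4 binds Cxcl12 and holds leukocytes in the bone marrow. Ccr2, the receptor of Ccl2 and Ccl7, lets classical (Ly6C-high) monocytes leave the bone marrow, while Cx3cr1, the fractalkine receptor, is high on non-classical (Ly6C-low) monocytes. Ccr7 leads dendritic cells and T cells to the T cell zone, Ccr6 binds Ccl20, and Gpr183 (EBI2) is a receptor of the oxysterol 7α,25-dihydroxycholesterol that positions B cells and dendritic cells in the spleen.

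The receptors lie on several chromosomes (GRCm38, GENCODE M21). Ccr1 (chr9:123962124-123968692, minus strand) and Ccr2 (chr9:124101950-124113557, plus strand) are separated by 133257 bases, and Cxcr2 (chr1:74153989-74161246, plus strand) and Cxcr1 (chr1:74191785-74194631, minus strand) by 30538 bases. Cxcr4 lies at chr1:128588199-128592293 on the minus strand. Ccr6 lies at chr17:8236043-8257141 on the plus strand and Ccr7 at chr11:99144196-99155077 on the minus strand. Cx3cr1 (chr9:119901616-120069879, minus strand) has a long gene model there that overlaps Wdr48, Gorasp1, Ttc21a, Csrnp1 and Xirp1, and Gpr183 (chr14:121952551-121965195, minus strand) lies within Ubac2, so UMIs of these genes are uncertain to the extent that the counting could assign them to an overlapping gene.

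The promoters of Ccr1, Cxcr2 and Cxcr4 are shown because these 3 receptors held most of their UMIs in granulocytes in steady state, as described below. Cxcr1 did too, but it is sparse, and its window, which holds no match, is not printed. Each sequence runs from 250 to 6 bases before the RefSeq start (245 bases, GRCm38.p6), 5′ to 3′ on the strand of the gene. Capitals mark GAGGAA, the core bound by ETS factors such as PU.1, or its reverse complement TTCCTC. The windows are chr9:123968698-123968942 (minus) for Ccr1, chr1:74153744-74153988 (plus) for Cxcr2 and chr1:128592305-128592549 (minus) for Cxcr4.
Ccr1: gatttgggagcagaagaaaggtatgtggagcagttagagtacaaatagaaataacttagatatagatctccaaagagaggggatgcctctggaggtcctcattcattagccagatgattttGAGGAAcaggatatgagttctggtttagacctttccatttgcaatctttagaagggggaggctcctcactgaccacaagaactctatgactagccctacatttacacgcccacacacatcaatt
Cxcr2: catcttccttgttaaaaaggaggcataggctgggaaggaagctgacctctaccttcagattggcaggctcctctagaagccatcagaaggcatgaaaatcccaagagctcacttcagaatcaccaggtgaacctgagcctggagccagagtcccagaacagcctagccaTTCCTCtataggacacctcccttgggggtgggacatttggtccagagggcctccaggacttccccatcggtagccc
Cxcr4: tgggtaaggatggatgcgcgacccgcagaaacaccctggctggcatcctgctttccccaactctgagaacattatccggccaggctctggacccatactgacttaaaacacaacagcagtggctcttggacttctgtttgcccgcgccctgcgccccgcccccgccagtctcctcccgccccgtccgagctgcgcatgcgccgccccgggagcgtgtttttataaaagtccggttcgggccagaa
Ccr1 and Cxcr2 each held 1 match and Cxcr4 none. The GC content was 42.9% for Ccr1, 54.3% for Cxcr2 and 61.6% for Cxcr4. Over all 32851 windows of that length, searched on both strands, GAGGAA occurred in 22.7%, and it occurred in 3 of the 8 receptors in the table (Ccr1, Ccr6 and Cxcr2). TTGCNNAA, a motif of the C/EBP type searched the same way, occurred in 9.43% of the windows and in 1 of the 8 receptors, Gpr183. A match describes the letters of the window only. Ccr7 was not matched to the table.

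The steady-state library held 4827 cells and 22358903 UMIs and the GM-CSF-treated library 6804 cells and 35007567 UMIs. The median UMI number per cell was 3371 and 4916. Levels are given as CPM, the summed UMIs of a group of cells divided by all UMIs of that group and scaled to counts per 1000000, with exact Poisson 95% intervals, and ratios of GM-CSF-treated to steady-state CPM with exact 95% intervals. All intervals cover counting error only, not the spread between mice. The table counts UMIs from the 3′ end, so levels were compared between cells and not between receptors. The cell types were those deposited by the authors. The cluster deposited as cDC2-A carried all 5 NK cell markers at a summed 18730 and 19624 CPM in steady state and after GM-CSF, against 19.8 CPM for the cDC2 list in steady state, with Clec4a4 and Cd4 at 0, so it is called by its deposited name only. The 43 steady-state cells deposited as MoMacDC_c4 also carried all 5 NK cell markers, at a summed 11806 CPM beside 681 for the 4 classical and 105 for the 4 non-classical monocyte markers, whereas its 595 GM-CSF-treated cells had 1.57 CPM of the NK cell list, with Ncr1 and Nkg7 at 0. The libraries therefore hold cells with unlike markers under the name MoMacDC_c4. Both libraries shared 8 cell barcodes.

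Among the 12 deposited cell types, the receptors fell into 3 patterns. Cxcr2, Ccr1 and, in steady state, Cxcr1 were highest in granulocytes, Ccr2 and Cx3cr1 in the clusters deposited as MoMacDC_c1 and MoMacDC_c5, and Ccr7, Ccr6 and Gpr183 in lymphocytes or dendritic cells. Cxcr4 crossed these borders, being highest in granulocytes and also high in MoMacDC_c5 and B cells. In steady state, granulocytes were 39.96% of the cells and held 84.8% of the Cxcr2, 84.7% of the Cxcr1, 80.7% of the Ccr1 and 52.2% of the Cxcr4 UMIs. MoMacDC_c1 held 85.6% of the Ccr2 and 65.1% of the Cx3cr1 UMIs.

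**Figure D1:**
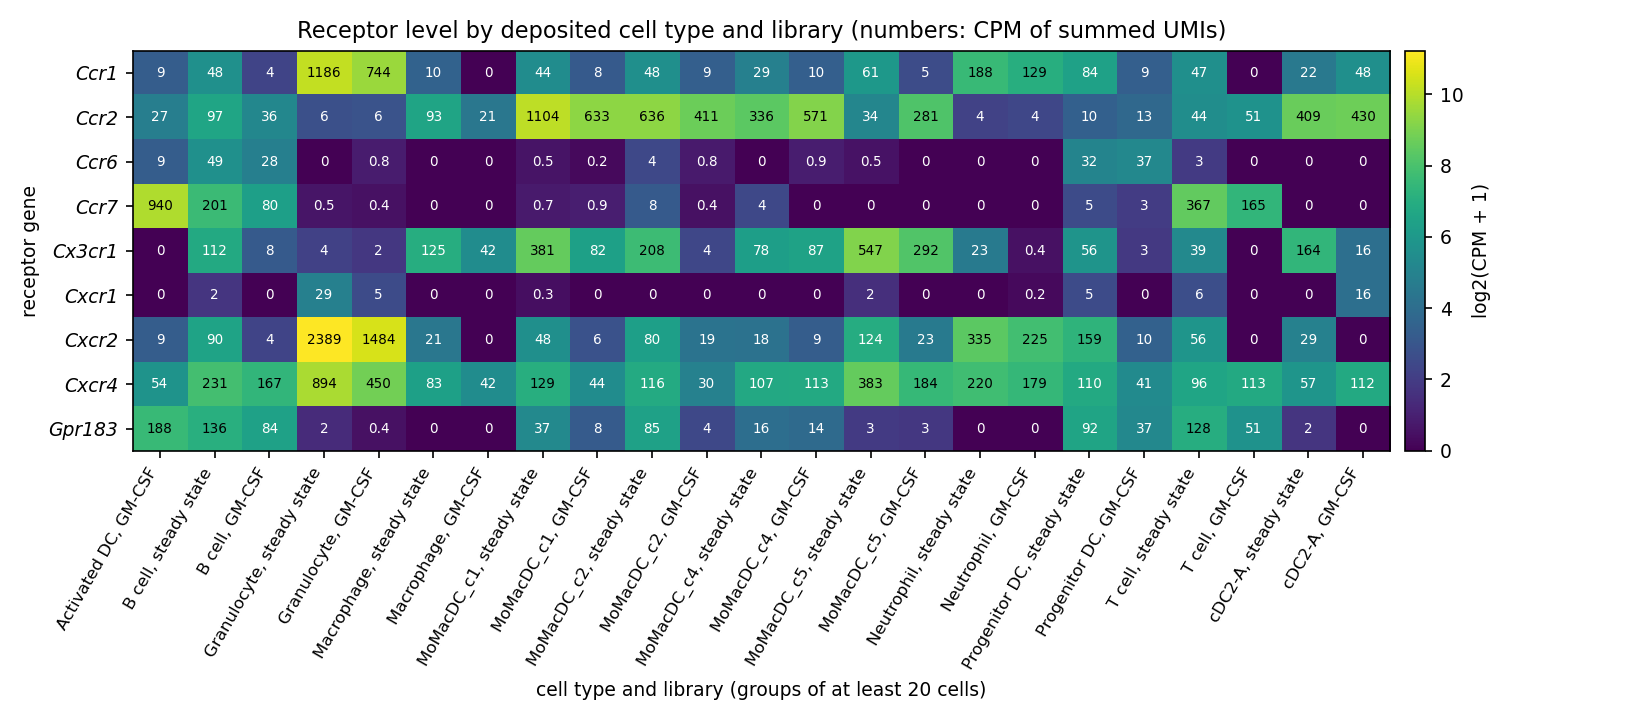
Heat map of the 9 receptors (vertical axis) in each deposited cell type and library with at least 20 cells (columns), coloured by log2(CPM + 1) with the CPM written in each cell. Cxcr2 and Ccr1 are highest in granulocytes in both libraries, and Ccr7 in the activated dendritic cells of the GM-CSF-treated library.

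Cxcr2, the main receptor of mouse neutrophils for Cxcl1 and Cxcl2, stood at 2389 CPM (2339-2439, 1929 cells) in steady-state granulocytes and 1484 (1436-1534, 1791 cells) after GM-CSF, a ratio of 0.621 (0.598-0.646). The cells deposited as neutrophils, which carried the 8 neutrophil markers at a summed 344474 CPM in steady state against 99678 in granulocytes, were next, with 335 CPM (302-372, 146 cells) and 225 (212-238, 893 cells), a ratio of 0.670 (0.595-0.756). Both clusters were therefore lower in the GM-CSF-treated library by more than counting error. A Cxcr2 UMI was found in 96.5% (exact binomial 95% interval 95.6-97.3) of steady-state and 81.4% (79.5-83.1) of GM-CSF-treated granulocytes, and in 87.0% (85.4-88.5) and 75.2% (72.8-77.5) when each cell was drawn down to 1000 UMIs. Granulocytes had median depths of 1770 and 1229 UMIs, and 496 GM-CSF-treated granulocytes with fewer than 1000 UMIs were left out of the second pair of shares. T cells, which should lack Cxcr2, gave a background of 5.75% (2.79-10.3) in steady state, at a median depth of 3747 UMIs. After GM-CSF 0 of 39 T cells had a Cxcr2 UMI (exact upper limit 9.03%), at a median depth of 2357 UMIs.

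Ccr1 followed the same order. It stood at 1186 CPM (1152-1222) in steady-state granulocytes and 744 (710.3-779.5) after GM-CSF, a ratio of 0.627 (0.593-0.663), and at 188 (163-215) and 129 (119-139) in neutrophils, a ratio of 0.685 (0.584-0.806). Neutrophils thus stood below granulocytes, and the treated library below the steady-state library in both clusters. A Ccr1 UMI was found in 84.2% (82.5-85.8) and 58.0% (55.6-60.3) of granulocytes, or 66.9% (64.7-69.0) and 47.8% (45.0-50.6) at 1000 UMIs, against 2.31% (0.633-5.81) of T cells in steady state at that depth. Granulocytes held 2.01 Cxcr2 UMIs (1.94-2.09) for each Ccr1 UMI in steady state and 1.99 (1.88-2.11) after GM-CSF, so the balance of these receptors differed by less than counting error between the libraries.

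Cxcr1, the other ELR chemokine receptor, was sparse. Granulocytes had 105 UMIs, or 28.6 CPM (23.4-34.6), in steady state and 12 UMIs, or 4.97 CPM (2.57-8.69), after GM-CSF, a ratio of 0.174 (0.0871-0.317). The share of granulocytes with a Cxcr1 UMI was 4.67% (3.77-5.70) and 0.558% (0.268-1.02). Neutrophils had 0 UMIs in steady state and 1 after GM-CSF, and no other cell type had more than 6. Cxcr1 was thus found mainly in granulocytes and was lower after GM-CSF by a wider margin than Cxcr2 or Ccr1, whose ratio intervals lie above that of Cxcr1.

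Cxcr4 stood at 894 CPM (864-925) in steady-state granulocytes and 450.5 (424-478) after GM-CSF, a ratio of 0.504 (0.470-0.540). The next level in steady state was 383 CPM (357-409.7) in MoMacDC_c5, which stood at 184 (144-232) after GM-CSF, a ratio of 0.481 (0.373-0.613). B cells at 231 CPM (199.8-265) and neutrophils at 219.9 (193-249.6) followed in steady state and did not differ beyond their intervals, and after GM-CSF MoMacDC_c5 at 184, neutrophils at 179 (167-191) and B cells at 167 (121-226) could not be ordered. The neutrophil ratio was 0.814 (0.705-0.943), above that of granulocytes, with intervals that do not overlap. In T cells (96.3 and 113 CPM) the ratio interval held 1.

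Among the clusters deposited as MoMacDC, Ccr2 and Cx3cr1 separated along the deposited types. Ccr2 was highest in MoMacDC_c1, with 1104 CPM (1083-1125) in steady state and 633 (617-650.2) after GM-CSF. In steady state MoMacDC_c2 followed at 636 (597-676), then the cluster deposited as cDC2-A at 409 (367-454) and MoMacDC_c4 at 336 (285-394). MoMacDC_c5 was far lower, at 34.4 CPM (27.0-43.2). After GM-CSF the span from MoMacDC_c1 to MoMacDC_c5 was narrower: MoMacDC_c2 at 411 (398-424) and MoMacDC_c5 at 281 (231-339), with cDC2-A at 430.4 (284-626), not separated from MoMacDC_c2. MoMacDC_c4 stood at 571 CPM (551-590.4), and its NK cell markers moved with this difference, at 11806 and 1.57 CPM. Their part in it was not tested. Granulocytes, with 5.71 and 6.22 CPM and a Ccr2 UMI in 1.04% (0.634-1.60) and 0.726% (0.387-1.24) of cells at median depths of 1770 and 1229 UMIs, gave a low background. In steady state B cells had 85 Ccr2 UMIs in 876214 and T cells 32 in 726936. MoMacDC_c5, with 74 in 2150852, was thus not above B or T cells there. After GM-CSF B and T cells had 9 in 251032 and 5 in 97175, and MoMacDC_c5, with 110 in 390848, was above both.

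Cx3cr1 had the reverse place in MoMacDC_c5, where it was highest in both libraries: 547 CPM (516-579) in steady state and 292 (241-350.4) after GM-CSF, a ratio of 0.533 (0.436-0.647). MoMacDC_c1 stood at 381 CPM (368-393) and 81.9 (76.0-88.2), and MoMacDC_c2 at 208 (186-232) and 4.19, a ratio of 0.0201 (0.0141-0.0281). MoMacDC_c4 had 77.9 CPM and 87.0 CPM, and its ratio interval held 1 (1.12, 0.792-1.62), over cells whose NK cell markers stood at 11806 and 1.57 CPM. Cx3cr1 thus differed between the libraries to unequal extents among MoMacDC_c1, c2 and c5, most in MoMacDC_c2. B cells, which are not known for Cx3cr1, also had lower levels after GM-CSF: they stood at 112 CPM in steady state and 7.97 after GM-CSF, where they also carried the 4 non-classical monocyte markers at a summed 640 and 47.8 CPM. The part of such free or co-captured RNA in the ratios was not tested.

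The MoMacDC bundle is the set of 6075 cells (2135 in steady state, 3940 after GM-CSF) that the authors clustered again, made of MoMacDC_c1, c2, c4, c5 and the progenitor dendritic cells. Of its 17 clusters, 12 had at least 20 cells in both libraries. Over the whole bundle, Ccr2 stood at 787 CPM (773-801) and 470.0 (462-478), a ratio of 0.597 (0.583-0.613), and Cx3cr1 at 350.2 (341-359.8) and 50.6 (47.9-53.3), a ratio of 0.144 (0.136-0.153). The median depth was 6894 and 6654 UMIs. A Ccr2 UMI was found in 63.8% (61.8-65.9) of steady-state and 71.4% (70.0-72.8) of GM-CSF-treated cells, but in 38.2% (36.2-40.3) and 33.7% (32.2-35.2) at 1000 UMIs. The undrawn shares went against the CPM, and no order was read from them. A Cx3cr1 UMI was found in 77.2% (75.4-79.0) and 19.9% (18.7-21.2) of cells, or 30.6% (28.7-32.7) and 4.95% (4.29-5.68) at 1000 UMIs, against 0.674% and 0.335% of granulocytes before drawing.

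**Figure D2:**
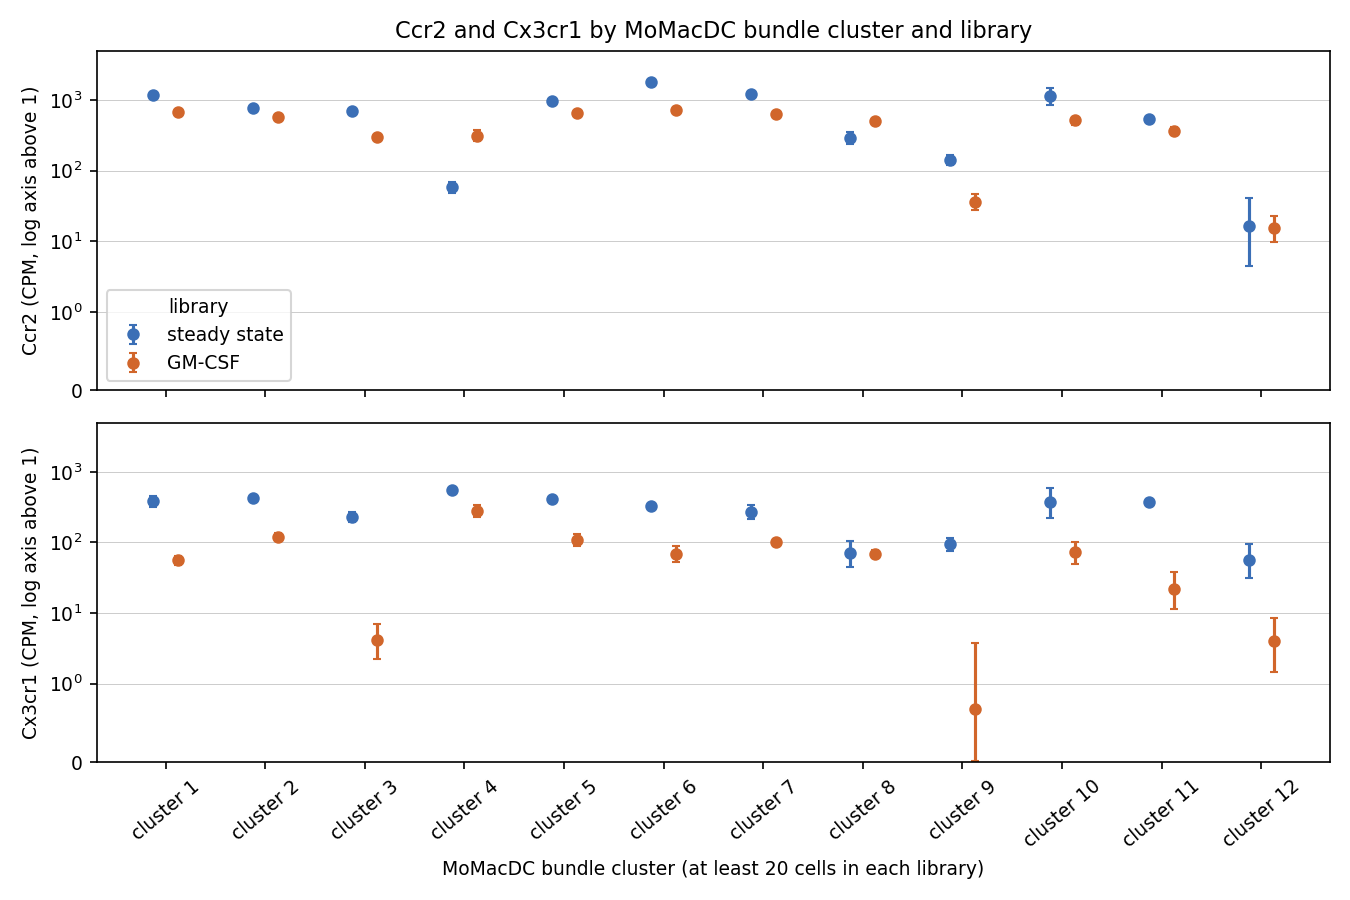
Ccr2 and Cx3cr1 levels (CPM, log axis above 1) by cluster of the MoMacDC bundle and by library, with exact Poisson 95% intervals. In steady state cluster 4 is low for Ccr2 and highest for Cx3cr1; after GM-CSF its Ccr2 level is higher, while most other clusters are lower for both receptors.

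Ccr2 varied over a wide range among these clusters in steady state. Cluster 6, which had the highest Ly6C tag among the 12 clusters (median 1272 counts), stood highest at 1826 CPM (1769.9-1883). Clusters 7, 1, 10 and 5 followed at 1208, 1179, 1145 and 966 CPM, the first 3 with overlapping intervals. Cluster 4 (57.8 CPM) and cluster 12 (16.2 CPM) were lowest, both below the level of B cells. After GM-CSF, cluster 6 was still at the top with 734 CPM (678-794), but its interval met those of cluster 1 (676 CPM) and cluster 5 (659 CPM). The ratio interval lay below 1 in 9 clusters, from 0.252 (0.181-0.347) in cluster 9 to 0.737 (0.684-0.795) in cluster 2, held 1 in cluster 12 (0.934), and lay above 1 in clusters 4 and 8. Among the 9, cluster 11 (0.683) turned to 1.30 without doublets.

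Cluster 4 was the exception among the larger clusters. It had 112 Ccr2 UMIs in 460 steady-state cells, or 57.8 CPM (47.6-69.5), and 123 UMIs in 139 GM-CSF-treated cells, or 312 CPM (259-372), a ratio of 5.40 (4.14-7.03). The steady-state level (112 in 1939251 UMIs) was below that of B cells (85 in 876214) and so was not told from background. The part of background in the ratio was not tested. The share of cells with a Ccr2 UMI was 12.2% (9.33-15.5) and 40.3% (32.1-48.9), or 4.15% (2.52-6.40) and 19.4% (13.2-27.0) at 1000 UMIs, so the order was the same at matched depth. In the same cells Cx3cr1 was lower, at 562 CPM (529-596) and 281 (231-339), a ratio of 0.5004 (0.408-0.609), and Cxcr4 was lower at 353 and 172 CPM. Cluster 4 carried the 4 non-classical monocyte markers at a summed 3438 and 1609 CPM and the 4 classical ones at 64.5 and 17.7 CPM, with F13a1 at 0 after GM-CSF, and its median Ly6C tag was 32 and 9 counts. The deposited type MoMacDC_c5, which shares most of these cells, gave a Ccr2 ratio of 8.18 (6.04-11.1). Cluster 8 had a ratio of 1.72 (1.401-2.14), but its 28 steady-state cells carried the 5 NK cell markers at a summed 12138 CPM, against 1.64 after GM-CSF, and cluster 7 likewise at 5057 and 0.971 CPM. The part of these NK cell genes in the ratios of clusters 7 and 8 was not tested.

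Cx3cr1 was lower after GM-CSF in 11 of the 12 clusters, with ratio intervals below 1. Cluster 3 stood at 228 and 4.12 CPM (0.0181, 0.00966-0.0312), cluster 11 at 373 and 21.9, and cluster 1 at 382 and 56.0 (0.146, 0.117-0.184). Cluster 9 had 95 UMIs in steady state and 1 after GM-CSF. Cluster 8, with 70.4 and 68.6 CPM, had an interval that held 1 (0.974, 0.635-1.56). Cluster 0, which had 14 cells in steady state and 668 after GM-CSF, stood at 4.10 CPM (2.47-6.41) for Cx3cr1 and 508 (487-529) for Ccr2 in the GM-CSF-treated library. The clusters that were mostly GM-CSF-treated cells therefore differed from one another in Cx3cr1: clusters 0 and 3 stood at 4.10 and 4.12 CPM, and clusters 7 and 8 at 101 and 68.6 CPM.

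Drawn down to 1000 UMIs per cell, both Ccr2 and Cx3cr1 were found in 239 of 2121 steady-state bundle cells (11.3%) and in 81 of 3879 GM-CSF-treated cells (2.09%). Ccr2 alone was found in 572 and 1225 cells, and Cx3cr1 alone in 411 and 111. In both libraries most cells with a Cx3cr1 UMI therefore had no Ccr2 UMI at this depth, at which absence of a UMI does not show absence of the RNA. In cluster 4, both were found in 7 of 458 and 2 of 139 cells.

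The Ly6C antibody tag gave a second axis for the same cells. Across the quartiles of the tag in the steady-state bundle, Ccr2 stood at 109, 425, 993 and 1330 CPM from the lowest to the highest quartile, a 12.2-fold span (10.9-13.8). After GM-CSF it stood at 309.7, 387, 532 and 597 CPM, a 1.93-fold span (1.82-2.04). By the raw tag, Ccr2 thus followed Ly6C in both libraries, over a narrower range after GM-CSF. By the tag after a centred log ratio, it stood at 436, 346, 449 and 626 CPM after GM-CSF, so the bottom quartile was above the next. The tag itself also had a narrower range there, with the top quartile starting at 62 counts against 1059 in steady state.

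Cx3cr1 and Cxcr4 ran differently along the tag in the 2 libraries. From the bottom to the top quartile Cx3cr1 stood at 261, 375, 396 and 341 CPM in steady state. There the top was 1.31-fold (1.19-1.43) above the bottom but below quartile 3. After GM-CSF it stood at 19.8, 13.3, 52.9 and 101 CPM (top to bottom 5.10-fold, 4.17-6.28), or 19.2-fold (14.02-26.9) by the centred log ratio. Cxcr4 was higher in the bottom quartile in steady state, at 229 against 115 CPM (top to bottom 0.501, 0.445-0.565), and higher in the top quartile after GM-CSF, at 78.8 against 38.0 CPM (2.07, 1.77-2.43). Ccr1 was lowest in the bottom quartile in steady state, at 2.96 against 51.8 CPM in the top quartile, but by the centred log ratio these were 30.4 and 39.4 CPM. By the raw tag it was highest in quartile 2, at 83.0 CPM. The Gpr183 intervals held 1 in both libraries (0.917 and 0.834), whereas by the centred log ratio Gpr183 was 2.50-fold (1.66-3.85) higher in the top quartile after GM-CSF.

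**Figure D3:**
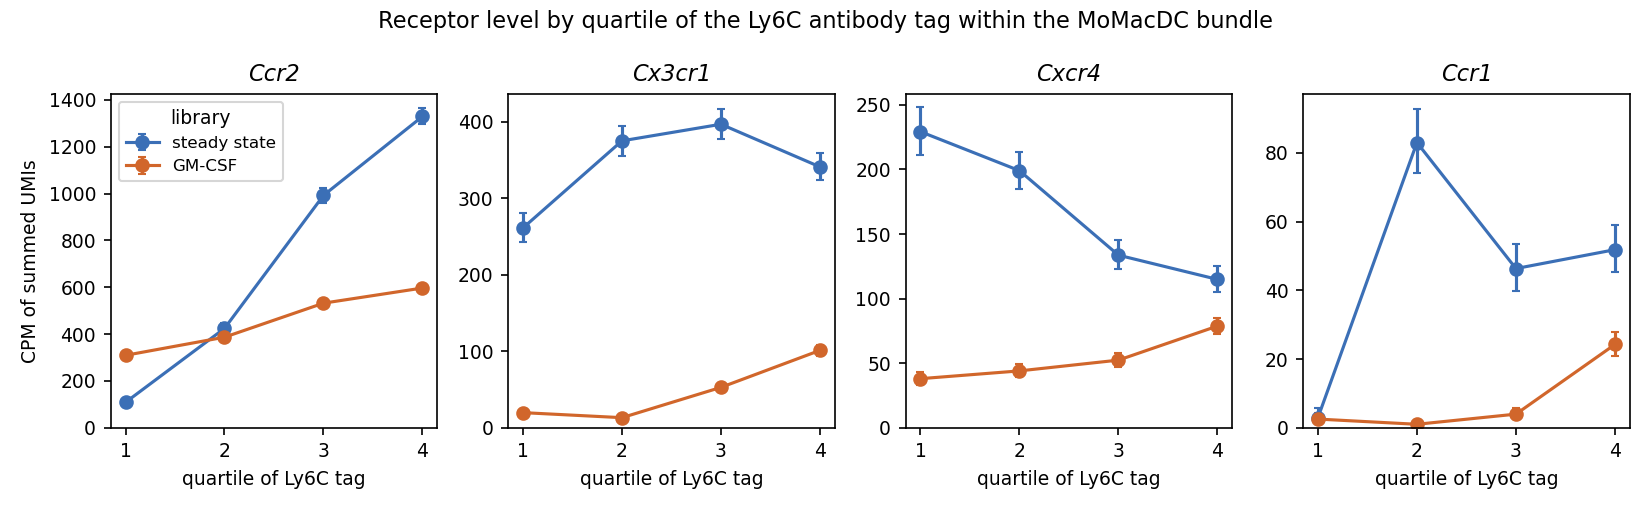
Levels of Ccr2, Cx3cr1, Cxcr4 and Ccr1 (CPM) across quartiles of the raw Ly6C tag count within the MoMacDC bundle of each library, with exact Poisson 95% intervals. Ccr2 is higher in each next quartile in both libraries, and Cxcr4 runs in opposite directions in the steady-state and GM-CSF-treated libraries.

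CD115-high cells of the bundle had been split by the authors, by antibody tags, into P-I (Ly6C+ classical monocytes), P-II (Ly6C- MHC II-), P-III (Ly6C- MHC II+ CD301b-) and P-IV (Ly6C- MHC II+ CD301b+). P-I held 139 and 187 cells in steady state and after GM-CSF, P-III 12 and 126, and P-IV 7 and 313, so P-III and P-IV were described in the GM-CSF-treated library. There Ccr2 stood at 709.9 CPM (666-756) in P-I, 775 (713-841) in P-III and 584 (553-616) in P-IV. P-I and P-III did not differ beyond counting error, and P-IV was lower than P-III (0.754, 0.683-0.833). Cx3cr1 was lower at each step, with 133 CPM (114-153) in P-I, 50.03 (35.2-69.0) in P-III and 10.7 (6.84-15.9) in P-IV.

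Among the other receptors, Cxcr2 had 25 UMIs in P-I and 0 in P-III and P-IV of that library (P-III to P-I ratio 0, upper limit 0.300). Ccr1 had 20, 2 and 8 UMIs (P-III to P-I ratio 0.189, 0.0214-0.776). The 8 neutrophil markers summed to 3356, 245 and 223 CPM in P-I, P-III and P-IV. Their part in these differences was not tested. Cxcr4, Gpr183, Ccr7 and Ccr6 did not differ beyond counting error at either step. Cxcr4 stood at 64.5 CPM (51.9-79.3) in P-I, 44.6 (30.7-62.7) in P-III and 43.6 (35.4-53.1) in P-IV, and its intervals for both steps held 1. Gpr183 had 8 UMIs in P-I, 2 in P-III and 8 in P-IV, too few to order. Ccr7 had 0 UMIs in all 3 subsets of the GM-CSF-treated library, which allows up to 1.33 CPM in P-IV. Ccr6 had 1 UMI in P-I, 0 in P-III and 4 in P-IV.

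**Figure D4:**
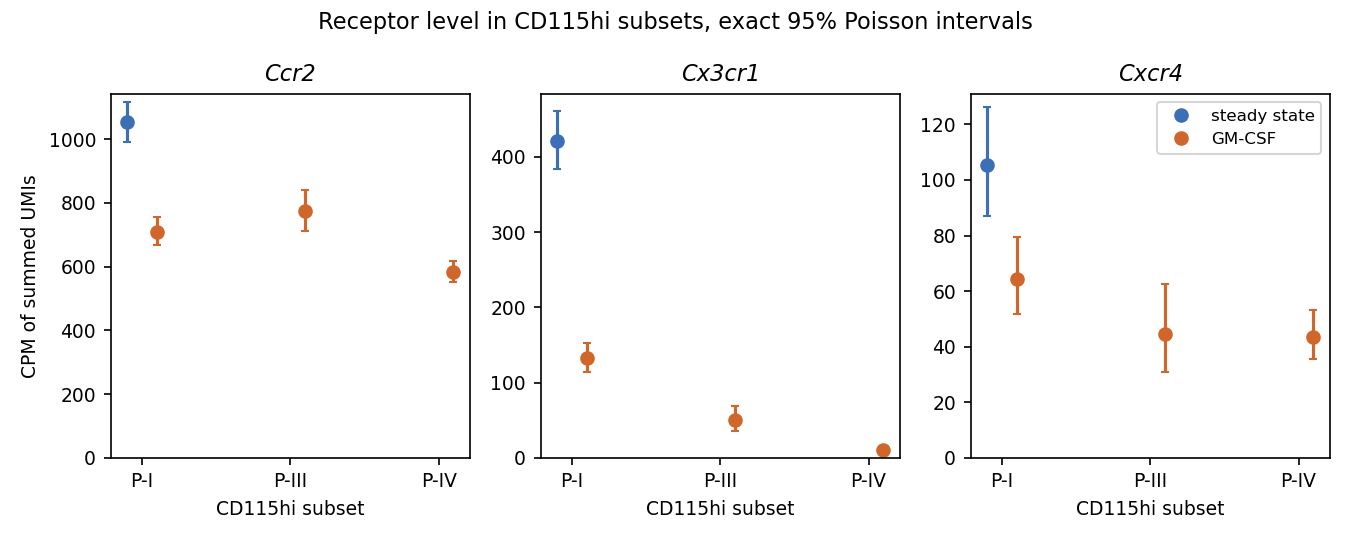
Levels of Ccr2, Cx3cr1 and Cxcr4 (CPM) in P-I of both libraries and in P-III and P-IV of the GM-CSF-treated library, with exact Poisson 95% intervals. Cx3cr1 is lower from P-I to P-III to P-IV, while Ccr2 lies between 584 and 775 CPM in the GM-CSF-treated library.

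Within P-I, Cx3cr1 stood at 421 CPM (383-461) in steady state and 133 after GM-CSF, a ratio of 0.315 (0.264-0.375), and Ccr2 at 1052 (993-1115) and 709.9, a ratio of 0.674 (0.619-0.735). Gpr183 had 73 UMIs, or 66.8 CPM (52.4-84.0), in steady state and 8 UMIs, or 5.74 CPM (2.48-11.3), after GM-CSF, a ratio of 0.0859 (0.0357-0.178). Ccr1 stood at 56.7 and 14.3 CPM and Cxcr2 at 78.7 and 17.9 CPM in P-I. These last values rest on bundle clusters 11, 14 and 15, whose cells carry neutrophil markers (8 of 8 in cluster 11, summed at 19448 and 28614 CPM): without those clusters Ccr1 and Cxcr2 no longer had 50 UMIs over both libraries in P-I. In the whole bundle without those clusters, Ccr1 stood at 17.8 and 4.02 CPM and Cxcr2 at 6.96 and 3.18 CPM. Cluster 11 had 1.94 and 1.90 Cxcr2 UMIs for each Ccr1 UMI, like the granulocytes, whereas steady-state clusters 5 and 6 had 0.133 (0.0551-0.280) and 0.0814 (0.0318-0.175). Ccr1 stood at 17.6 and 39.1 CPM in clusters 5 and 6, not above the 46.8 CPM of T cells and 47.9 of B cells. By level alone it was thus not told from background there. In steady state B and T cells held 1.88 (1.28-2.80) and 1.21 (0.747-1.96) Cxcr2 UMIs for each Ccr1 UMI, above clusters 5 and 6.

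Ccr7 lay mainly in activated dendritic cells and lymphocytes. Activated dendritic cells stood at 2783 CPM (2433-3168, 8 cells) in steady state and 940.2 (769-1138, 20 cells) after GM-CSF. T cells followed at 367 CPM (325-414) and 165 (94.1-267), and B cells at 201 (172-233) and 79.7 (48.7-123). Granulocytes (0.544 and 0.414 CPM) and neutrophils (0 UMIs, which allows up to 2.75 and 0.608 CPM) gave the background, and the MoMacDC bundle had 28 and 21 UMIs in all, or 1.87 and 0.775 CPM. T cells held 38.1%, activated dendritic cells 32.5% and B cells 25.1% of the Ccr7 UMIs in steady state, and activated dendritic cells 64.4% after GM-CSF.

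Ccr6 was found in B cells and in progenitor dendritic cells. B cells stood at 49.1 CPM (35.5-66.1) in steady state and 27.9 (11.2-57.5) after GM-CSF, and progenitor dendritic cells at 32.4 (23.1-44.1) and 36.6 (30.0-44.1), a ratio of 1.13 (0.780-1.67). These groups did not differ beyond counting error in either library. In the bundle the Ccr6 UMIs lay mainly in clusters 9 and 12, at 44.4 CPM (34.3-56.5) and 27.7 (19.96-37.4) after GM-CSF, and progenitor dendritic cells held 82.0% of all Ccr6 UMIs of the GM-CSF-treated library. Granulocytes had 0 and 2 UMIs and neutrophils 0 in both libraries.

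Gpr183 stood highest in activated dendritic cells, with 293 CPM (188-436) and 188 (116-287), then in B cells with 136 (113-163) and 83.7 (51.8-128) and in T cells with 128 (103-157) and 51.5 (16.7-120.1). B and T cells did not differ beyond their intervals. Progenitor dendritic cells stood at 92.2 CPM (76.1-111) and 36.6 (30.0-44.1), and MoMacDC_c2 at 84.6 (70.9-100.1) and 4.40. Cluster 3 of the bundle was highest among the 12 clusters in steady state, at 118 CPM (94.6-146), and stood at 9.13 after GM-CSF. MoMacDC_c5 stood at 2.79 and 2.56 CPM, near the 1.63 CPM of steady-state granulocytes, and bundle cluster 12 at 65.0 (37.1-105) and 42.9 (33.1-54.6), whose intervals overlap. Gpr183 was thus lower after GM-CSF in MoMacDC_c2, cluster 3 and the progenitor dendritic cells as a whole, while neutrophils had 0 UMIs in either library. The markers of MoMacDC_c2 also differed between the libraries. Its classical monocyte markers summed to 498 and 30.4 CPM, its non-classical ones to 583 and 66.1, and its dendritic progenitor markers to 472 and 58.4. Its macrophage markers went the other way, at 97.1 and 166 CPM. The part of these differences in the Gpr183 levels was not tested.

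The size of these differences was set against all genes by a fixed rule: at least 2-fold in either direction on the CPM scale with 0.5 counts added to each sum, for genes with at least 50 UMIs over both sums. In the MoMacDC bundle, 5 of the 7 receptors tested were at least 2-fold lower after GM-CSF, beside 9.46% of all 10860 genes tested, and 0 were higher, beside 8.66% of genes. They were Cx3cr1 (6.92-fold lower), Cxcr2 (6.02-fold), Ccr1 (5.51-fold), Gpr183 (3.71-fold) and Cxcr4 (2.93-fold), while Ccr2 was 1.67-fold lower and Ccr6 had 3.54 and 4.54 CPM (1.28, 0.921-1.80). Without clusters 11, 14 and 15 the difference was 2.19-fold (1.61-2.98) for Cxcr2 and 4.42-fold (3.50-5.62) for Ccr1, and without doublets the ratios were 0.0626 and 0.102. Cxcr2 also stood at 90.2 and 3.98 CPM in B cells and 56.4 and 0 in T cells. Ccr1 stood at 47.9 and 3.98 CPM in B cells and 46.8 and 0 in T cells. The 8 neutrophil markers summed to 3112 and 777 CPM in B cells and to 2608 and 319 CPM in T cells. The part of neutrophil RNA in the bundle ratios of these receptors was not tested. The mix of clusters also differed between the libraries, with 14 and 668 cells in cluster 0, and its part in the bundle folds was not tested. Within the 12 clusters, the ratio interval lay below 1 in 11 for Cx3cr1, 9 each for Ccr1 and Cxcr4, 8 for Gpr183 and 5 for Cxcr2. For Cxcr2 it held 1 in 6 clusters and lay above 1 in 1. The median log2 ratio of the 7 receptors was -1.89, against -0.06 for all genes tested.

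In P-I, 4 of 6 receptors tested were at least 2-fold lower (Ccr1, Cx3cr1, Cxcr2 and Gpr183), beside 7.12% of 5774 genes, and 0 were higher, beside 4.99%. Without doublets 3 of 5 tested were lower (Ccr1, Cx3cr1 and Gpr183), beside 6.80% of genes. Without clusters 11, 14 and 15 it was 2 of 4 (Cx3cr1 and Gpr183), beside 6.64% of genes. The median log2 ratio of the 6 was -1.81, against -0.10 for all genes, and scaling by the median ratio of genes moved every log2 ratio in P-I up by 0.15. In granulocytes 1 of 4 was lower, Cxcr1, beside 3.2% of 6257 genes, and 0 were higher, beside 7.29%, and Cxcr4 fell just short of the threshold at 1.98-fold lower. Under median-ratio scaling Cxcr4 passed it too, beside 3.95% of genes lower. In neutrophils 0 of 3 receptors were past the threshold in either direction, beside 3.62% of 6489 genes higher and 2.48% lower. Within the GM-CSF-treated library Cx3cr1 alone among 3 tested was at least 2-fold lower from P-I to P-III (0.377, 0.257-0.539), beside 2.71% of 5233 genes lower and 1.11% higher. From P-III to P-IV it was again Cx3cr1 alone among 3 (0.213, 0.122-0.366), beside 1.01% of 6216 genes lower and 1.91% higher.

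**Figure D5:**
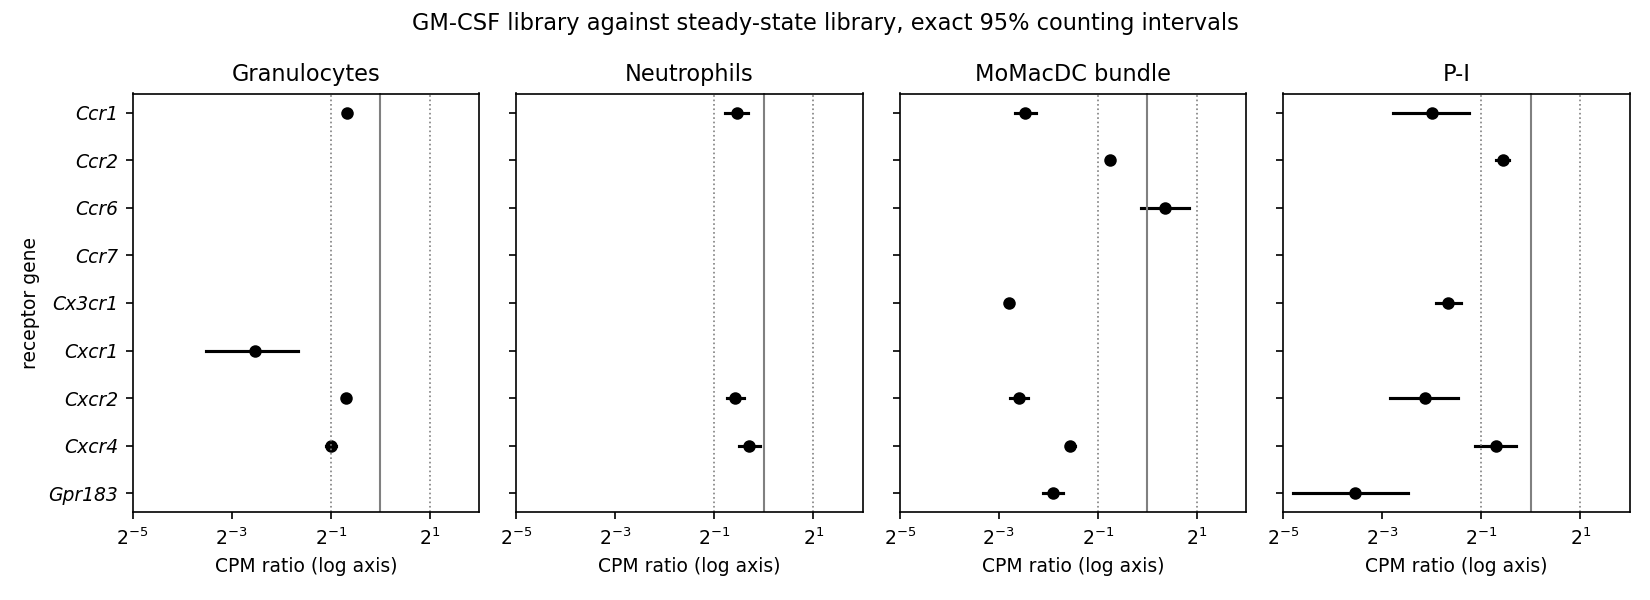
Ratio of GM-CSF-treated to steady-state CPM (log axis) of each receptor with at least 50 UMIs over both libraries in granulocytes, neutrophils, the MoMacDC bundle and P-I, with exact 95% intervals, a solid line at a ratio of 1 and dotted lines at 2-fold. Cx3cr1, Cxcr2, Ccr1, Gpr183 and Cxcr4 lie below a ratio of 0.5 in the bundle, and Cxcr1 does in granulocytes.

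Other parts of the pathway were described from fixed lists of 31 further chemoattractant receptors, 22 ligands and oxysterol enzymes, and 25 signalling genes below the receptors. In the bundle 19 of the 31 receptors were tested, of which 4 were at least 2-fold higher and 9 lower after GM-CSF, beside 8.66% and 9.46% of all genes tested. Ltb4r1, the leukotriene B4 receptor, stood at 81.1 and 221 CPM, the complement receptor C3ar1 at 1.67 and 7.24, and P2ry10 at 9.70 and 21.3. Lower ones included S1pr5, a sphingosine 1-phosphate receptor (53.9 and 2.55 CPM), Ccrl2 (74.7 and 17.4), the C5a receptor C5ar1 (32.4 and 5.09) and the formyl peptide receptor Fpr2 (36.8 and 7.46), besides Ccr9, Ccr10, Cmklr1, C5ar2 and Fpr1. Receptors of complement fragments thus stood on both sides of the threshold, with C3ar1 higher and C5ar1 lower. C5ar1 was also the gene most like Cxcr2 across cell types, as given below. The 5 NK cell markers summed to 360.3 and 6.35 CPM over these cells. The parts of neutrophil and NK cell RNA in the differences of these receptors were not tested.

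Of the 22 ligand genes, 7 were tested in the bundle and 5 were at least 2-fold lower, with 0 higher. Ccl3 stood at 110.1 and 6.98 CPM, Ccl5 at 161 and 13.8, Ccl4 at 58.9 and 5.69, Ccl2 at 34.0 and 6.28, and Cxcl2 at 135 and 25.1. These encode ligands of Ccr1, Ccr2 and Cxcr2. Over the same cells the 5 NK cell markers summed to 360.3 and 6.35 CPM, and NK cells are known to make Ccl3, Ccl4 and Ccl5. Their part in the ligand differences was not tested. Of the 25 signalling genes, all were tested in the bundle, 2 were higher and 3 lower, shares near those of all genes (8.66% and 9.46%) and no result about the list. Rgs10, a regulator that speeds the turn-off of Gi proteins, stood at 158 and 360.0 CPM and Plcb2 at 30.0 and 60.4, while Rgs1, of the same family as Rgs10, stood at 181 and 52.4, and the kinase Fgr at 407 and 167.

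In granulocytes, 11 of the 31 receptors were tested, with 4 higher and 1 lower, beside 7.29% and 3.2% of all genes. Cmklr1, the chemerin receptor, stood at 1.09 and 24.9 CPM (4 and 60 UMIs), Ltb4r1 at 84.6 and 237.5, S1pr4 at 22.9 and 66.3 and Gpr132 at 27.2 and 57.6, while Ptafr, the receptor of platelet-activating factor, stood at 426 and 205. Ltb4r1 was thus past the threshold in granulocytes and in the bundle. Of 5 ligand genes tested Ccl4 was lower (68.6 and 31.9 CPM), and of 24 signalling genes Rgs10 was higher (3.81 and 28.2 CPM). In neutrophils none of 7 receptors passed the threshold, beside 3.62% of all genes higher and 2.48% lower, Ccl6 was higher among 2 ligand genes (150.3 and 501 CPM) and Adrbk2 lower among 24 signalling genes (38.5 and 4.25 CPM). In P-I, 7 receptors were tested, with 2 higher, among them Ltb4r1 (87.9 and 206.5 CPM), and 1 lower, C5ar1 (42.1 and 7.17 CPM), beside 4.99% and 7.12% of all genes. Of 3 ligand genes in P-I Cxcl2 was lower (64.1 and 10.0 CPM), and of 24 signalling genes 1 was higher, Rgs10, and 3 were lower, among them Rgs14 and Rgs18. From P-I to P-III none of 5 receptors, 2 ligand genes and 22 signalling genes tested passed, beside 1.11% of all genes higher and 2.71% lower. From P-III to P-IV 1 of 6 receptors tested was higher, P2ry10 (4 and 81 UMIs, 5.41 and 36.0 CPM). None of 3 ligand genes and 24 signalling genes passed in that step, beside 1.91% of all genes higher and 1.01% lower.

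The genes whose levels were most like each receptor were found over 23 groups of deposited cell type by library with at least 20 cells, as the Pearson r of log2(CPM + 10) among 9751 genes with at least 200 UMIs. The groups share 2 libraries and their depth, so r is a description. Ccr1 was most like Hdc, the histidine decarboxylase (0.968), Il1f9 (0.953) and Cxcr2 (0.944), and Cxcr2 was most like C5ar1 (0.966), Clec4d (0.965) and the decoy receptor Il1r2 (0.960). Ccr2 was most like Capn2 (0.855), Ahnak (0.853) and Pdlim1 (0.831), and Cx3cr1 like Ace (0.873), Arhgef10l (0.870) and Hes1 (0.849). Cxcr4 was most like Xylt1 (0.900), Pag1 (0.858) and Rnf144a (0.838). Ccr6 was most like Rasgrp3 (0.881), Lrrc16a (0.878) and H2-Oa (0.844), Gpr183 like St8sia6 (0.890), Zfp933 (0.860) and Btla (0.858), and Ccr7 like Gramd3 (0.815), Gpr183 (0.801) and 3110009E18Rik (0.799). Ccr1 and Cxcr2 therefore had close companions, while those of Ccr2 and Ccr7 were looser. Cxcr1 had fewer than 200 UMIs and was not compared.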

How the data were processed

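CD11b+ splenocytes of 2 conditions were profiled by droplet CITE-seq (7000 cells targeted per library). Per the labels, the submitters' processing notes name Cell Ranger 3.0.2 and Seurat 3.6.0 and the mm10 build. The deposited RNA and tag matrices hold raw counts (UMIs per gene, counts per tag). The authors filtered cells to a range of 200 to 5000 genes with mitochondrial UMIs of 15% or less, integrated the libraries on 2000 variable genes and assigned clusters, cell types and CD115-high subsets. The mitochondrial share is deposited by the authors in percent. Whether counting used strand is not given in the sources used here.

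The counts were used as deposited and summed over the cells of a group. CPM carry exact Poisson and shares exact binomial (Clopper-Pearson) 95% intervals, and ratios of sums intervals obtained by the exact binomial method. With 1 library per condition no p-value was computed. A count of 0 allows up to 3 counts. Genes were set against a rule of at least 2-fold with 0.5 counts added, for genes with at least 50 UMIs over both sums, across all genes. The rule and intervals were tested on simulated data. For depth matching each cell was drawn down to 1000 UMIs (seed 20). Scrublet called 141 steady-state (2.92%) and 186 GM-CSF-treated cells (2.73%) doublets, which were kept. The genes named are the 9 receptors, for each the 3 genes most like it, and the genes of the fixed lists past the rule, some of which are not reported here. The receptors, lists and tests were chosen with earlier results of these data known. Alternatives were median-ratio scaling, doublets left out, minimums of 20 and 0 UMIs, 1 count added, thinning, a 10% mitochondrial limit, the mean over cells, pooled libraries, the tag after a centred log ratio, and leaving out clusters 11, 14 and 15 or 7 and 8. Python 3.11.15, numpy 2.4.6, scipy 1.17.1, pandas 2.3.3, scanpy 1.11.5, anndata 0.12.19 and matplotlib 3.10.9 were used.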

Additional observations from a re-analysis of the deposited data

Results flagged for a closer look

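The ratio of GM-CSF-treated to steady-state Ccr2 CPM ran in opposite directions in different groups of the MoMacDC bundle, each with 1 library per condition, and the difference between the groups was not tested. It was 8.18 in MoMacDC_c5 and 5.40 in bundle cluster 4, which share most of their cells. In both, the steady-state Ccr2 level was below that of B cells and not told from background. The ratio was 0.437 in cluster 3, 0.402 in cluster 6 and 0.252 in cluster 9.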

How the results depend on the processing

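No paired analysis was possible because each condition had 1 library and no test was run. In the MoMacDC bundle the number of receptors at least 2-fold lower stayed at 5 under every alternative except those of the minimum. With a minimum of 20 UMIs 6 of 8 tested were lower, and with none 7 of 9, beside 10.7% and 16.98% of genes. Under the other alternatives the share of genes ran from 8.19% with thinning, where 6 receptors were tested, to 9.52% without doublets. In granulocytes the count of lower receptors was 2 with median-ratio scaling, with no minimum and with thinning, against 1. Beside these stood 3.95%, 6.56% and 3.67% of all genes. With no minimum 1 receptor of 9 was higher, beside 21.1% of genes. In neutrophils 1 was lower with a minimum of 20 UMIs and with none, beside 4.72% and 12.4% of genes, against 0. In P-I 1 was lower with thinning, where 2 were tested, 2 without clusters 11, 14 and 15, and 3 without doublets, against 4. Beside these stood 9.65%, 6.64% and 6.80% of genes. In P-I 5 were lower with no minimum (Ccr7 added) or without clusters 7 and 8 (Cxcr4 added), beside 15.5% and 7.74% of genes. With no minimum 1 was higher in P-I, beside 15.7% of genes. From P-I to P-III 3 were lower with a minimum of 20 UMIs and with none, beside 4.37% and 9.26% of genes, against 1. With thinning 0 were lower there, beside 2.34% of genes, where 1 receptor was tested and Cx3cr1 fell under the minimum. With both libraries pooled 4 were lower, beside 3.61% of genes. From P-III to P-IV 1 was higher with no minimum, beside 7.23% of genes. In that step 0 were lower with thinning, where 1 was tested, beside 1.18% of genes, against 1. Leaving out clusters 11, 14 and 15 or 7 and 8 was chosen after seeing the data.

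The ratio of Cxcr2 between the top and bottom Ly6C quartiles in steady state was 9.34 by the raw tag and 0.375 by the centred log ratio, and that of Gpr183 after GM-CSF was 0.834 and 2.50. The cause was not tested. Without doublets the bundle ratio was 0.102 against 0.181 for Ccr1 and 0.0626 against 0.166 for Cxcr2, and the Ccr2 ratio of cluster 11 was 1.30 against 0.683. Thinning moved the Ccr2 ratio of cluster 8 to 2.64 and its Cx3cr1 ratio to 0.366. Of the ratios between libraries, 65 of 65 moved by less than counting error under the 10% mitochondrial limit, 60 of 65 under median-ratio scaling, 57 of 63 without doublets and 41 of 63 under thinning. Depth limits the steady-state P-III and P-IV, with 12 and 7 cells, and Cxcr1 and Ccr6, with 138 and 232 UMIs in all.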
